A study of Arabidopsis thaliana with 24 samples.

Results

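Among Arabidopsis loci known in the array annotation only by a locus code, 31 were induced by auxin in wild-type seedlings and kept at least 50% of that induction in axr3-1. They were chosen from these data. Each has a probe set with 1 annotated gene and a locus code as its symbol. Its mean log2 signal in Col was at least 1 higher with indole-3-acetic acid (IAA, the main natural auxin) than in control, with the lowest Col IAA array above the highest Col control array. Its difference in axr3-1 was at least 50% of that in Col. The array holds 11933 such probe sets among the 22746 that are not controls, 80 of them met the Col criteria, and the 31 also met the axr3-1 criterion.

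Seedlings were grown from seed in liquid medium with 1.5% sucrose, under 16 h of light and 8 h of darkness, and at 7 days were given 5 µM IAA or ethanol (control) for 2 h at 24 °C. RNA of the seedlings was hybridised to Affymetrix ATH1 arrays, 3 for each of 8 groups: axr3-1, iaa5-1 iaa6-1 iaa19-1 (called iaa5 iaa6 iaa19 here), iaa17-6 and Columbia wild type (Col), each with IAA and as control. All mutants are in the Columbia ecotype. Separate cultures per replicate are not stated in the labels, so p-values measure only the spread between these arrays, which may be technical. In whole seedlings, fewer cells of a type and less RNA per cell cannot be told apart.

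As background, auxin acts by bringing Aux/IAA repressors to TIR1/AFB receptors, which mark them for destruction and so release the ARF transcription factors that switch on auxin-induced genes. The axr3-1 allele changes the Aux/IAA protein IAA17 so that it resists this destruction, and many auxin-induced genes respond poorly in it. The alleles iaa17-6, iaa5-1, iaa6-1 and iaa19-1 are insertions in single Aux/IAA genes, a family whose members overlap in function. The levels of IAA17, IAA5, IAA6 and IAA19 were not analysed here, so the targeted genes give no check of the genotype labels.

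Values are log2 signals with a floor of 5.64, the log2 of 50, so where all 3 control arrays sit at that floor the IAA difference can only be bounded from below ("at least"). Such a control group has an SD of 0, which lowers the spread estimated for the locus, so its SEs and p-values may be too small. Array medians were 5.942 to 6.064, and arrays of the same group correlated at 0.972 to 0.997. A set of 6 arrays stood apart from the others of their groups, by a weight below -0.25 on the main pattern of within-group deviations. These were axr3-1 IAA replicate 3, iaa5 iaa6 iaa19 IAA and control replicates 1, iaa17-6 IAA and control replicates 3, and Col control replicate 3. The cut took the negative side only, and axr3-1 IAA replicate 2 (0.25) and iaa17-6 control replicate 2 (0.27), far out on the other side, stayed in. The set was found after seeing the data. Without it, 29 of the 31 loci were called higher in iaa5 iaa6 iaa19 and 29 in iaa17-6. Of 14 listed root hair genes, 3 had a tested probe set that names 1 gene. These root hair genes, EXPA7 and EXPA18, which encode expansins, and XTH26, a xyloglucan-modifying enzyme gene, were at the floor on all 6 axr3-1 arrays. On the 18 other arrays they read 6.07 to 7.73. In iaa17-6, XTH26 fell by 0.85 on the log2 scale with IAA (adjusted p = 0.0112), and the differences of EXPA18 (-0.60) and EXPA7 (0.07) did not pass the test. In iaa5 iaa6 iaa19 none of these passed, at -0.52 for XTH26, -0.47 for EXPA18 and -0.27 for EXPA7. Of 8 listed root genes, 1 had a tested probe set that names 1 gene. That root marker, PYK10, read 12.20 to 12.51 on the axr3-1 arrays and 12.25 to 12.69 on the others. Of the 14 listed photosynthesis genes 0 matched a probe set that names 1 gene, so they were not analysed here. The part of these markers in the responses was not tested.

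**Figure D1:**
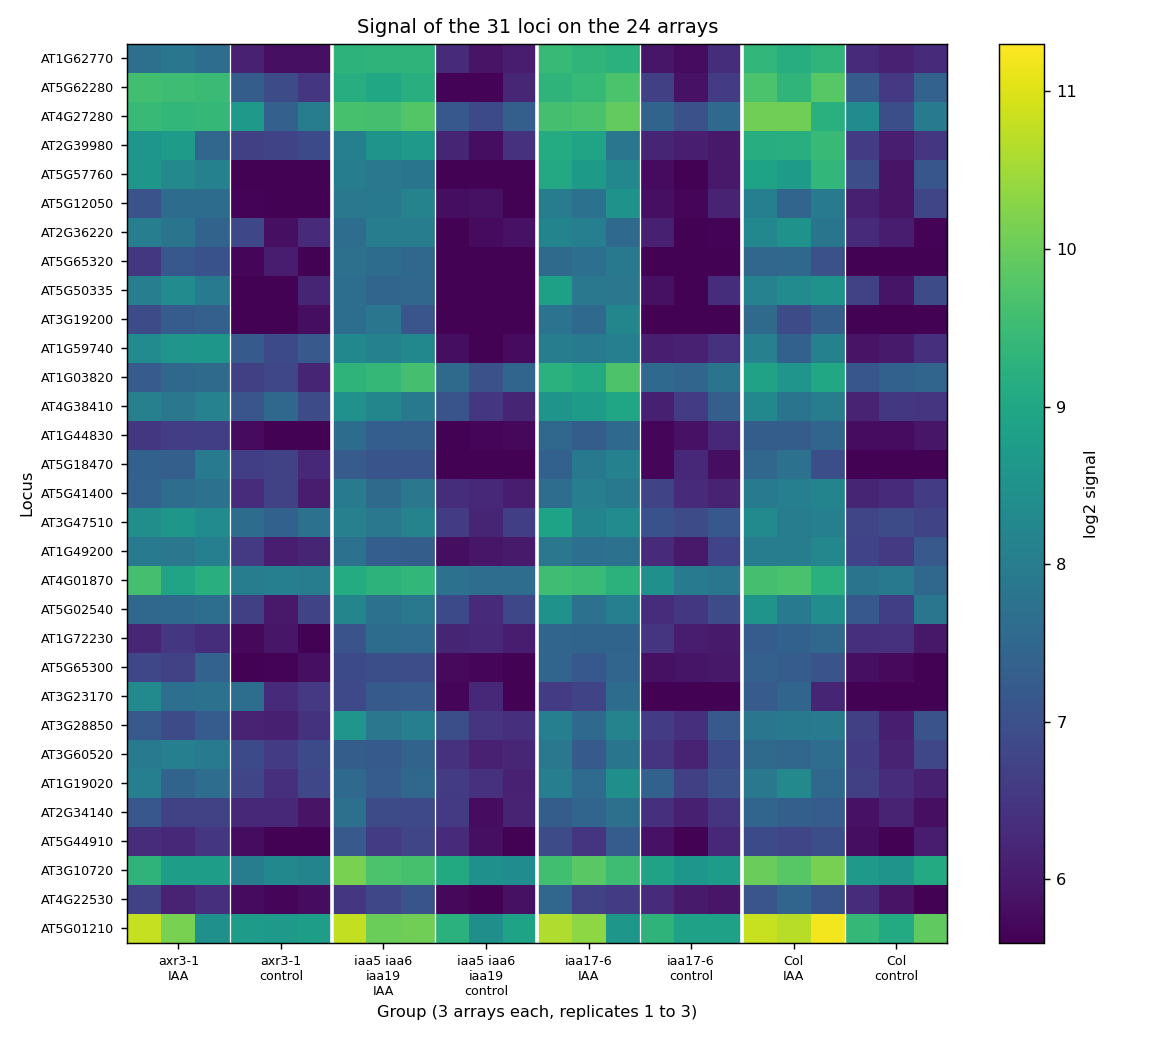
Log2 signal of the 31 loci (rows, ordered by the smaller of the iaa5 iaa6 iaa19 and iaa17-6 responses) on the 24 arrays (columns, 3 per group). The IAA arrays are brighter than the control arrays of their genotype, except IAA replicate 3 of axr3-1 and of iaa17-6 for AT5G01210 (bottom row), and the axr3-1 IAA arrays are dimmer than those of Col in rows such as AT1G62770 and AT1G03820.

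Since Col and axr3-1 chose the loci, their IAA responses are given as a description. The tests compare group means of iaa5 iaa6 iaa19 and iaa17-6, whose 12 arrays played no part in the choice. The spread behind their SEs and p-values was estimated over all 24 arrays, so it includes the Col and axr3-1 arrays that chose the loci. Counts from fits on the groups of each contrast alone are given in the last section. All 31 loci had an IAA mean above the control mean in both mutants, and 30 of 31 rose in each by the limma fit. Over all 14192 probe sets tested, 3.68% were called higher in iaa5 iaa6 iaa19 and 4.41% in iaa17-6. The median log2 response of the 31 was 1.59 in iaa5 iaa6 iaa19 (range 0.94 to 3.27) and 1.51 in iaa17-6 (range 0.83 to 3.32), against medians of -0.01 and 0.00 over all probe sets tested. Of the 31, 0 were called lower in either mutant, where 3.59% of all probe sets tested were called lower in iaa5 iaa6 iaa19 and 3.31% in iaa17-6. The IAA arrays lay wholly above the control arrays for 31 of 31 loci in iaa5 iaa6 iaa19 and for 30 in iaa17-6, where 8.58% and 8.29% of all probe sets tested did so. All 31 loci passed the filter on low values and were above the floor on every IAA array of every genotype. The rule itself fixed the passing of the filter and the Col IAA part of this.

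AT1G62770 came first when loci were ordered by the smaller of their responses in iaa5 iaa6 iaa19 and iaa17-6. Its axr3-1 arrays read 7.71, 7.84 and 7.63 with IAA and 6.13, 5.83 and 5.83 in control. Its iaa5 iaa6 iaa19 arrays read 9.29, 9.31 and 9.30 with IAA and 6.28, 5.91 and 6.05 in control. In iaa17-6 the IAA arrays read 9.46, 9.32 and 9.24 and the control arrays 5.95, 5.78 and 6.34. Every IAA array of these genotypes was above every control array, and the axr3-1 IAA arrays lay more than 1 log2 unit below the other IAA arrays. The Col arrays read 9.37, 9.16 and 9.33 with IAA and 6.30, 6.13 and 6.31 in control. In iaa5 iaa6 iaa19, AT1G62770 rose 9.32-fold (log2 3.22, SE 0.13, adjusted p = 3.41e-12). In iaa17-6 it rose 9.98-fold (log2 3.32, SE 0.13, adjusted p = 2.77e-12). The log2 difference was 1.79 in axr3-1 and 3.04 in Col, so that axr3-1 kept 58.9%.

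AT5G62280 read between 9.02 and 9.81 on all 12 IAA arrays. With IAA its axr3-1 arrays read 9.57, 9.52 and 9.48, and in control 7.27, 6.90 and 6.50. The iaa5 iaa6 iaa19 arrays read 9.15, 9.02 and 9.17 with IAA and 5.66, 5.65 and 6.22 in control. The iaa17-6 arrays read 9.31, 9.42 and 9.69 with IAA and 6.67, 5.87 and 6.60 in control. The control arrays differed more between genotypes than the IAA arrays did. Col arrays read 9.68, 9.32 and 9.81 with IAA and 7.23, 6.55 and 7.39 in control. It rose 9.65-fold in iaa5 iaa6 iaa19 (log2 3.27, SE 0.24, adjusted p = 1.08e-08) and 8.54-fold in iaa17-6 (log2 3.09, SE 0.24, adjusted p = 2.64e-08). Its log2 difference was 2.63 in axr3-1 and 2.55 in Col, a share of 103%.

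AT4G27280 rose 5.85-fold in iaa5 iaa6 iaa19 (log2 2.55, SE 0.32, adjusted p = 1.31e-05) and 5.31-fold in iaa17-6 (log2 2.41, SE 0.32). Its IAA arrays read 9.63 to 9.77 in iaa5 iaa6 iaa19 and 9.61 to 9.94 in iaa17-6, and its control arrays 6.89 to 7.32 and 7.01 to 7.54. The axr3-1 arrays read 9.45, 9.37 and 9.39 with IAA and 8.67, 7.34 and 8.00 in control, and the Col arrays 10.06, 10.06 and 9.21 with IAA and 8.37, 6.96 and 7.92 in control. The control arrays thus spread over more than 1 log2 unit in axr3-1 and in Col. The mean log2 difference was 1.40 in axr3-1 and 2.03 in Col.

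AT2G39980 read low on 2 of the arrays that stood apart. Its axr3-1 arrays read 8.59, 8.72 and 7.48 with IAA and 6.69, 6.77 and 6.89 in control. The iaa17-6 arrays read 9.10, 8.93 and 7.83 with IAA and 6.20, 6.07 and 5.98 in control. In both genotypes replicate 3 was the lowest IAA array and still above every control array. It rose in iaa5 iaa6 iaa19 (log2 2.29, SE 0.31, adjusted p = 3.37e-05) and in iaa17-6 (log2 2.53, SE 0.31, adjusted p = 9.93e-06). The log2 difference was 1.48 in axr3-1 and 2.87 in Col, 51.6% being kept, and without axr3-1 IAA replicate 3 it was 1.87 in axr3-1, a share of 65.2%. The locus dropped out in 4 of the 12 choices that left out 1 array.

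AT5G57760 and AT5G50335 were near or at the floor in the control groups of the mutants. AT5G57760 was at the floor on all 3 control arrays of axr3-1 and of iaa5 iaa6 iaa19, and read 5.77, 5.64 and 5.98 in iaa17-6 control. With IAA it read 8.61, 8.28 and 8.10 in axr3-1, 7.99, 7.88 and 7.81 in iaa5 iaa6 iaa19, and 9.03, 8.70 and 8.26 in iaa17-6. Its Col arrays read 8.91, 8.74 and 9.38 with IAA and 6.95, 5.89 and 7.12 in control, so that 2 of 3 Col control arrays were well above all mutant control arrays. It rose at least 4.76-fold in iaa5 iaa6 iaa19 (log2 at least 2.25, adjusted p = 3.06e-06) and 7.28-fold in iaa17-6 (log2 2.86, SE 0.25, adjusted p = 1.28e-07, above the floor on 2 of 3 control arrays). AT5G50335 rose at least 3.72-fold in iaa5 iaa6 iaa19 (log2 at least 1.90, adjusted p = 5e-05) and 4.72-fold in iaa17-6 (log2 2.24, SE 0.26). Its control arrays read 5.64, 5.64 and 6.18 in axr3-1 and 6.71, 5.92 and 6.93 in Col.

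**Figure D2:**
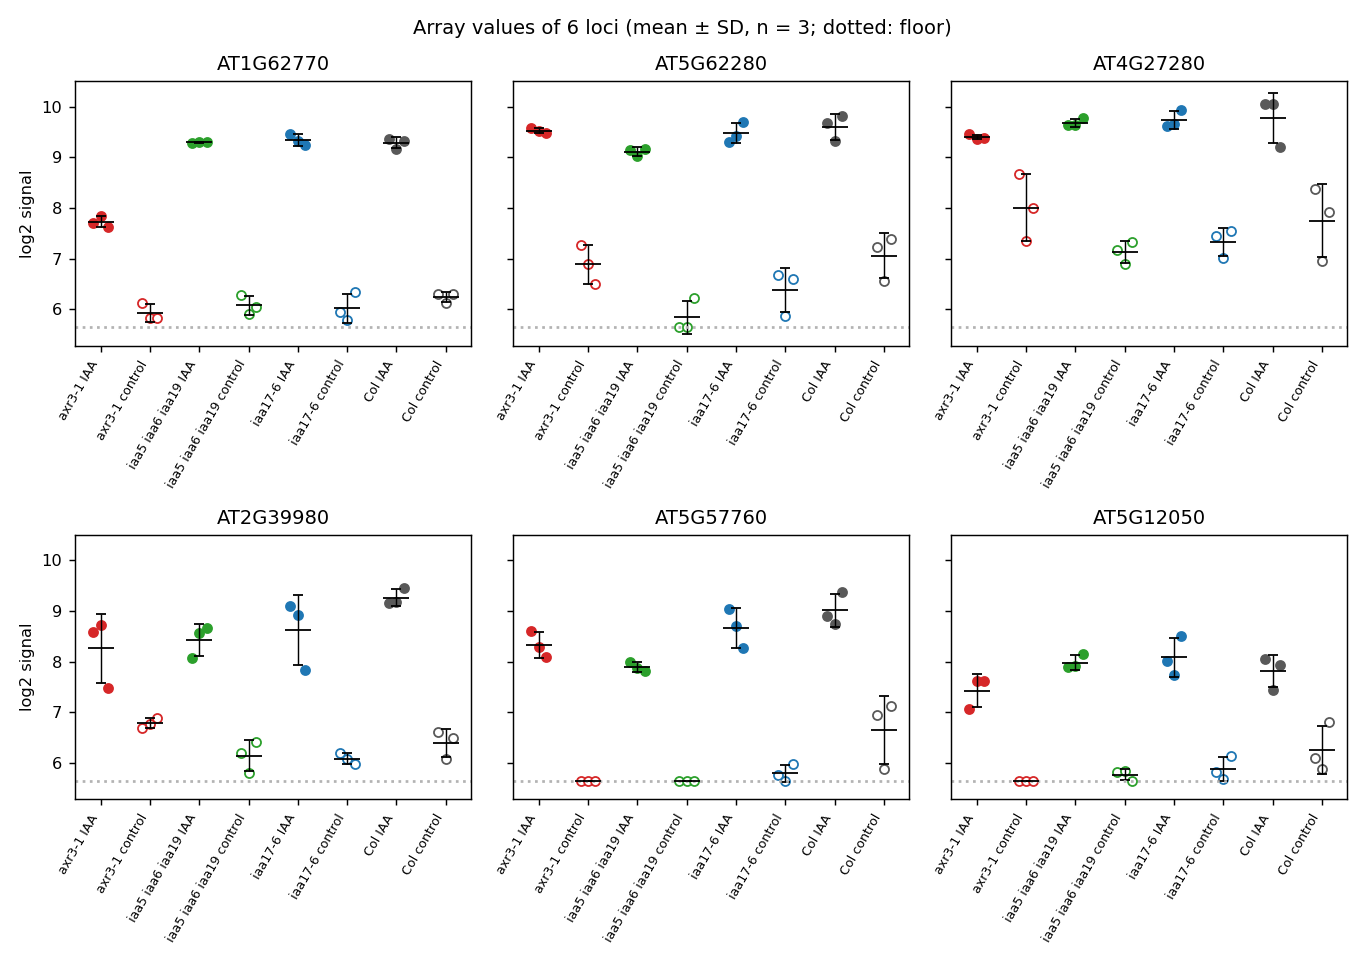
Log2 signal on each array for the 6 loci that come first when ordered by the smaller of the iaa5 iaa6 iaa19 and iaa17-6 responses. Filled points are IAA arrays, open points control arrays, bars the mean ± SD of 3 arrays, and the dotted line the floor of 5.64. AT1G62770 is lower in axr3-1 with IAA (7.63 to 7.84) than in Col (9.16 to 9.37), while AT5G62280 reads 9.48 to 9.57 in axr3-1 and 9.32 to 9.81 in Col.

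Other loci with a log2 response of at least 1.75 in both mutants were AT5G12050, AT2G36220, AT5G65320, AT3G19200, AT1G03820 and AT1G59740. AT5G12050 rose 4.64-fold in iaa5 iaa6 iaa19 (log2 2.21, SE 0.23) and 4.61-fold in iaa17-6 (log2 2.20, SE 0.23). AT2G36220 rose 4.36-fold in iaa5 iaa6 iaa19 and 4.34-fold in iaa17-6 (log2 2.12, SE 0.25 in each). For both loci the responses of the mutants were within 0.01 of each other on the log2 scale, far less than their SEs. Some control values were floored: AT5G12050 was above the floor on 2 of 3 control arrays of iaa5 iaa6 iaa19, and AT2G36220 on 2 of 3 in iaa5 iaa6 iaa19 and in iaa17-6. AT5G65320 and AT3G19200 were at the floor on all control arrays of iaa5 iaa6 iaa19, iaa17-6 and Col. AT5G65320 rose at least 3.89-fold in iaa5 iaa6 iaa19 and at least 4.20-fold in iaa17-6, and AT3G19200 at least 3.71-fold and at least 4.62-fold. In axr3-1 control AT5G65320 was above the floor on 2 of 3 arrays (5.69, 6.03 and 5.64), and with IAA it read 6.53, 7.16 and 7.03, against 7.49, 7.52 and 7.01 in Col.

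AT1G59740 is the 1 locus of the 31 that RefSeq also lists under a family name, NPF4.3 of the NRT1/PTR family, whose members are membrane transporters of nitrate, peptides and other small molecules. Its axr3-1 arrays read 8.34, 8.57 and 8.62 with IAA and 7.22, 6.89 and 7.20 in control. The iaa5 iaa6 iaa19 arrays read 8.27, 8.11 and 8.27 with IAA and 5.81, 5.64 and 5.77 in control. The iaa17-6 arrays read 8.01, 7.95 and 8.06 with IAA and 6.08, 6.12 and 6.42 in control. All axr3-1 arrays of either treatment lay above the arrays of the same treatment in the other genotypes. The Col arrays read 8.09, 7.38 and 8.10 with IAA and 5.91, 6.02 and 6.36 in control. It rose 5.56-fold in iaa5 iaa6 iaa19 (log2 2.48, SE 0.17, adjusted p = 3.67e-09) and 3.49-fold in iaa17-6 (log2 1.80, SE 0.17, adjusted p = 3.49e-07).

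At the weak end, 8 loci had a smaller response between 0.83 and 1.20. Of these, 7 rose in both mutants. AT3G60520 rose by 1.04 in iaa5 iaa6 iaa19 and 1.14 in iaa17-6 (SE 0.19 in each), and AT3G28850 by 1.57 in iaa5 iaa6 iaa19 and 1.20 in iaa17-6 (SE 0.25 in each). The other 5, AT2G34140, AT5G44910, AT3G10720, AT4G22530 and AT1G19020, rose by 0.94 to 1.20 in iaa5 iaa6 iaa19 and by 0.84 to 1.16 in iaa17-6. Dropping iaa17-6 control replicate 2 took the adjusted p of AT4G22530 to 0.0553, dropping control replicate 3 to 0.0685, and dropping IAA replicate 1 to 0.104. AT1G19020 lost its iaa17-6 call when control replicate 2 was dropped, at an adjusted p of 0.0757, and when IAA replicate 3 was, at 0.0839. AT2G34140 lost its iaa5 iaa6 iaa19 call without control replicate 2 of that group (adjusted p = 0.0564). When the 6 outlying arrays named above were dropped, AT1G19020 lost its call in both, with an adjusted p of 0.0597 in iaa5 iaa6 iaa19 and 0.203 in iaa17-6.

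AT5G01210, the brightest locus of the 31 after IAA, was the 1 locus not called in either mutant. Its arrays read 10.81, 10.16 and 8.47 in axr3-1 IAA, 10.77, 10.03 and 10.06 in iaa5 iaa6 iaa19 IAA, 10.61, 10.33 and 8.61 in iaa17-6 IAA, and 10.82, 10.68 and 11.21 in Col IAA. The control arrays read 8.69 to 8.78 in axr3-1, 8.45 to 9.25 in iaa5 iaa6 iaa19, 8.86 to 9.31 in iaa17-6 and 9.08 to 9.90 in Col. IAA replicate 3 of axr3-1 and of iaa17-6, both among the arrays that stood apart, lay below the control arrays of its own genotype. The log2 difference was 1.42 in iaa5 iaa6 iaa19 (SE 0.49, 95% interval 0.40 to 2.44, adjusted p = 0.101) and 0.83 in iaa17-6 (SE 0.49, 95% interval -0.19 to 1.85, adjusted p = 0.445). Without the 6 arrays AT5G01210 was called in both, with 1.37 (adjusted p = 0.00387) and 1.38 (adjusted p = 0.00361). With a replicate block it was called in iaa5 iaa6 iaa19 (adjusted p = 0.0448).

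AT3G23170 was already above the floor in axr3-1 without IAA. Its axr3-1 arrays read 8.32, 7.69 and 7.73 with IAA and 7.67, 6.27 and 6.55 in control. The iaa5 iaa6 iaa19 arrays read 6.86, 7.21 and 7.24 with IAA and 5.69, 6.24 and 5.64 in control. In iaa17-6 it read 6.62, 6.77 and 7.62 with IAA and was at the floor on the 3 control arrays. All axr3-1 arrays of either treatment were above those of the same treatment in the other genotypes. In Col it read 7.23, 7.46 and 6.20 with IAA and was at the floor in control. It rose by 1.24 in iaa5 iaa6 iaa19 (SE 0.34, adjusted p = 0.0284) and by at least 1.36 in iaa17-6 (adjusted p = 0.0151). The first call was lost without iaa5 iaa6 iaa19 control replicates 1 or 3 or IAA replicates 2 or 3 (adjusted p = 0.103 to adjusted p = 0.111), and the second without iaa17-6 IAA replicate 3 (adjusted p = 0.0992). Without the 6 arrays the adjusted p of AT3G23170 was 0.164 and 0.26.

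The responses of the mutants outside the rule were set against each other. The difference, iaa5 iaa6 iaa19 minus iaa17-6, had a median of 0.01 on the log2 scale over the 31 loci (range -0.61 to 0.67). The limma fit called 0 of 31, where 0.0141% of all probe sets tested were called higher and 0.0564% lower. At an unadjusted p under 0.05 it was 1 of 31 (3.23%), near the 2.14% of all probe sets tested (303). That locus was AT1G59740 (0.67, 95% interval 0.18 to 1.17, unadjusted p = 0.0108, adjusted p = 1). For AT1G62770 the 95% interval was -0.50 to 0.30, and for AT5G57760 it was -1.35 to 0.13, a difference of floored values. The widest interval was that of AT5G01210, -0.86 to 2.03, and standard errors over the 31 loci were 0.17 to 0.69. Across the 31 loci the responses correlated with Pearson's r of 0.90 and Spearman's rho of 0.88. These are across loci, which are not replicates, and the mutants share no arrays.

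**Figure D3:**
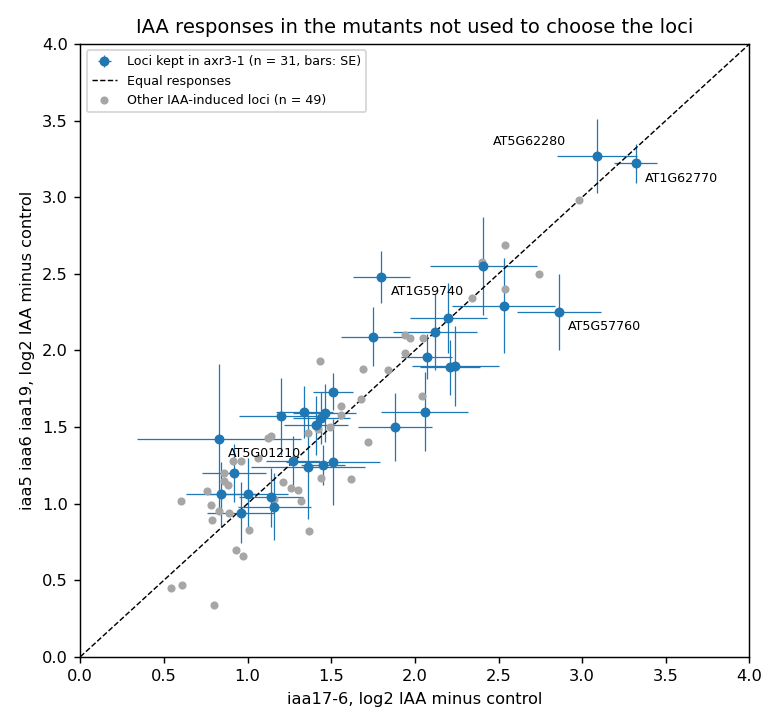
IAA response in iaa5 iaa6 iaa19 (vertical axis) against that in iaa17-6 (horizontal axis), both log2 IAA minus control, for the 31 loci (blue, bars 1 SE) and the 49 other IAA-induced loci (grey). The dashed line marks equal responses, and the points of both sets lie along it.

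The 49 loci that met the Col criteria but fell under 50% in axr3-1 were measured the same way. Of these 45 rose in iaa5 iaa6 iaa19 and 44 in iaa17-6, against 30 of 31 in each for the kept loci. Their median log2 response was 1.28 in iaa5 iaa6 iaa19 and 1.32 in iaa17-6, against 1.59 and 1.51 for the kept loci. The ranges overlapped widely, 0.34 to 2.98 in iaa5 iaa6 iaa19 and 0.54 to 2.98 in iaa17-6 for the 49. The difference between these sets was not tested. In axr3-1, which separated them by the rule, the median log2 difference was 1.12 for the kept loci and 0.32 for the others, and in Col 1.53 and 1.37. The share of induced loci kept was 38.8% (31 of 80). Among genes with a name other than a locus code that met the same Col criteria it was 54.5% (12 of 22).

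The share of the Col difference kept in axr3-1 ran from 50.9% to 135%, with a median of 68.6%. The floor enters these shares. All 3 Col control arrays were at the floor for 4 loci, AT5G65320, AT3G19200, AT5G18470 and AT3G23170, so their Col difference is a lower bound. For AT5G18470 and AT3G23170, whose axr3-1 control arrays were all above the floor, the share is therefore at most 59% and at most 82.2%, and a true share under 50% cannot be told apart from one above it. Just inside the 50% limit were AT2G34140 and AT4G38410 (50.9% each), AT2G39980 (51.6%), AT4G22530 (52.3%) and AT1G72230 (52.7%). Just outside were AT3G50340 (49.6%), AT2G28690 (48.3%) and AT1G60010 (47.5%). The smallest Col differences inside were 1.05 for AT3G60520, 1.06 for AT5G44910 and 1.08 for AT5G02540, while AT5G49170 (1.00 after rounding), AT1G10140 (0.99) and AT3G50350 (0.97) lay just below 1. Leaving out each Col and axr3-1 array in turn gave 26 to 36 loci, and 20 of the 31 were chosen in all 12 cases. AT4G38410 dropped out in 7 of the 12 and AT1G72230 in 5. Without axr3-1 IAA replicate 3, which stood apart, AT4G38410 kept 47.7% and AT5G18470 46.9%. With at least 75% of the Col difference asked for, 11 of the 31 remained.

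Set against the mutants that the rule did not use, the axr3-1 difference was 69.8% of that in iaa5 iaa6 iaa19 and 74% of that in iaa17-6 in the median over the 31 loci. It lay between 41.9% and 121% of the first and between 40.7% and 129% of the second. The 121% is that of AT5G50335, whose iaa5 iaa6 iaa19 response is a lower bound. The 129% is that of AT5G01210, whose iaa17-6 response was not called (log2 0.83, adjusted p = 0.445). The axr3-1 difference was the smallest of the 4 genotypes for 21 of 31 loci. It was under 50% of the iaa5 iaa6 iaa19 response for 2 loci, AT1G03820 (41.9%) and AT1G72230 (46.2%), and under 50% of the iaa17-6 response for AT4G38410 (40.7%) and AT1G72230 (46.5%). These are descriptions, since the axr3-1 arrays chose the loci.

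With IAA, the level in axr3-1 was below that in Col for 26 of 31 loci, with a median log2 difference of -0.44 (range -1.56 to 0.95). Without the 6 arrays that stood apart the median was -0.43. For 13 of them all 3 axr3-1 arrays lay below all 3 Col arrays, and for 4 loci all lay above. Over all probe sets tested 12.2% did so in each direction, but the loci were chosen for high Col IAA arrays, so nothing is read from these counts. The lowest were AT1G62770 (-1.56), AT1G03820 (-1.39), AT5G01210 (-1.09), AT3G10720 (-1.03) and AT1G72230 (-1.02). The value of AT5G01210 rests on axr3-1 IAA replicate 3, and without that array it was -0.41. Without it AT2G39980 was at -0.61. AT1G03820 read 7.23, 7.50 and 7.56 in axr3-1 IAA, 9.30, 9.40 and 9.62 in iaa5 iaa6 iaa19 IAA, 9.25, 9.09 and 9.71 in iaa17-6 IAA and 8.88, 8.57 and 9.02 in Col IAA. Its axr3-1 IAA arrays thus lay at the level of the Col control arrays, 7.12, 7.36 and 7.47. The control arrays of axr3-1 were lower still, at 6.67, 6.81 and 6.18.

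In control, axr3-1 and Col differed in both directions, with a median log2 difference of -0.03 over the 31 loci. All axr3-1 arrays lay above the Col arrays for 7 loci and below them for 8, where 11.6% and 9.63% of all probe sets tested did so. These arrays were used by the rule too, so the counts are a description. Differences above 0.75 were those of AT1G59740 (1.01), AT4G38410 (0.80) and AT3G47510 (0.76), and those of AT3G23170 (at least 1.19) and AT5G18470 (at least 0.89), whose Col control arrays were all at the floor. Differences below -0.75 were those of AT1G03820 (-0.76) and AT5G57760 (-1.01 or lower, its axr3-1 control arrays being all at the floor). AT5G18470 read 6.65, 6.71 and 6.24 in axr3-1 control and was at the floor on the 3 control arrays of iaa5 iaa6 iaa19 and of Col, with 5.67, 6.24 and 5.82 in iaa17-6. AT3G47510 read 7.62, 7.36 and 7.75 in axr3-1 control and 6.79, 6.91 and 6.76 in Col control.

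Of the 31 loci, 7 had an axr3-1 difference at least as large as that in Col, and without the 6 arrays that stood apart 5 did. The shares were 135% for AT1G49200, 127% for AT5G50335, 115% for AT5G12050, 114% for AT3G60520, 103% for AT5G62280 and for AT5G02540, and at least 114% for AT5G57760, at the floor on all 3 axr3-1 control arrays. AT5G12050 was at the floor on 2 of these arrays and AT5G50335 on 1, so their axr3-1 difference may be larger too. In 6 of the 7, all but AT3G60520, the axr3-1 mean was lower than that of Col both in control and with IAA. In the same 6 the control mean was below that of Col in all 3 mutants, against 4 of the 24 other loci. The share is computed from the axr3-1 and Col levels, so these are a description only. As a percentage of the iaa17-6 and iaa5 iaa6 iaa19 responses, the axr3-1 difference of AT5G62280 was 85.1% and 80.5%. That of AT5G12050 was 81.1% and 80.8%, of AT5G02540 73.2% and 86.5%, of AT1G49200 118% and 110%, and of AT3G60520 105% and 115%. For AT5G50335 (102% and 121%) and AT5G57760 (93.8% and 119%) the iaa5 iaa6 iaa19 control arrays were all at the floor. AT5G01210 kept 74.3%, and 121% without axr3-1 IAA replicate 3. AT1G49200 read 7.93, 7.85 and 8.06 in axr3-1 IAA and 6.56, 6.08 and 6.20 in axr3-1 control, against 7.99, 7.99 and 8.23 in Col IAA and 6.74, 6.57 and 7.20 in Col control.

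**Figure D4:**
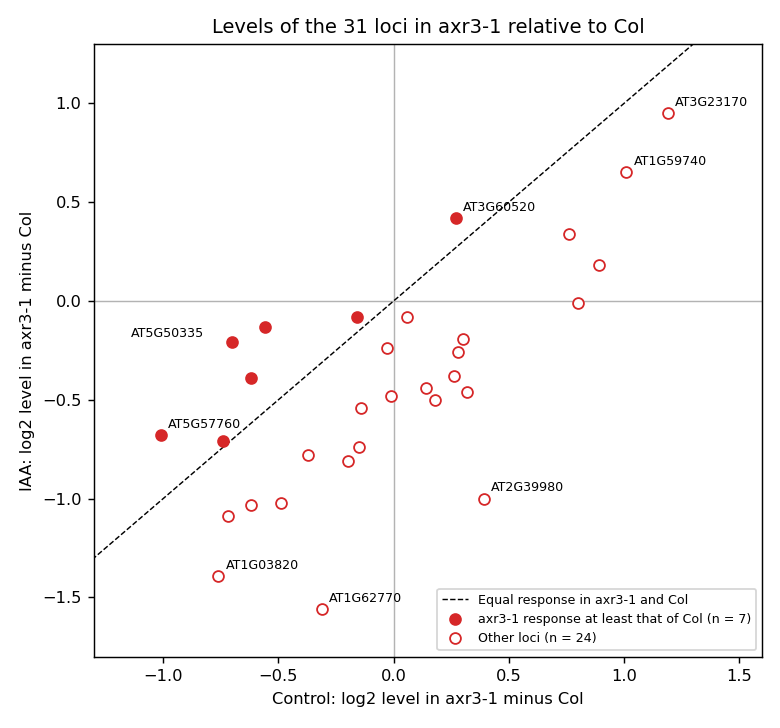
Difference in mean log2 level between axr3-1 and Col for each of the 31 loci, in control (horizontal axis) and with IAA (vertical axis). Filled points are the 7 loci with an axr3-1 response at least that of Col, and the dashed line marks equal responses. Most points lie below 0 on the vertical axis, and AT3G23170 (a lower bound in control) and AT1G59740 lie highest on both axes.

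The auxin response list, of Aux/IAA, GH3 and SAUR genes and other known auxin-linked genes, had 13 of 87 members with a tested probe set that names 1 gene. No SAUR gene was among the 13. Of the 13, 12 rose in iaa5 iaa6 iaa19 and 12 in iaa17-6, with median log2 responses of 2.03 and 1.95. On the list 18 genes had a probe set that names them alone, and those never above the floor were not tested. IAA29, IAA30, PUCHI and GH3.1 were at the floor on every control array, so they passed the filter only through IAA arrays. Their responses are lower bounds. The filter thus raises the share called, and nothing is read from these counts. Over all probe sets tested, 3.68% and 4.41% were called higher. HAT2, a homeobox transcription factor gene, had log2 differences of 2.93 in axr3-1 and 3.00 in Col, and ARL, a gene linked to organ growth, 1.36 and 1.52. GH3.1, whose enzyme joins auxin to amino acids, IAA30, an Aux/IAA gene, and PUCHI, a lateral root regulator, were listed at the floor on all axr3-1 arrays. GH3.17 was the 1 tested member not called (log2 0.32 in iaa5 iaa6 iaa19 and 0.24 in iaa17-6).

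The 31 loci lie on all 5 nuclear chromosomes, as their codes give them, with 7, 3, 6, 4 and 11 on chromosomes 1 to 5. None shares its probe set with another gene in the annotation. By the gene order of RefSeq's TAIR10.1 assembly the closest pair was AT5G65300 and AT5G65320, with 1 gene between them, HB5, which has no probe set named here. AT5G65300 rose by 1.25 in iaa5 iaa6 iaa19 and by 1.45 in iaa17-6 (SE 0.13 in each). Of the genes next to one of the 31, 14 had a tested probe set of their own. None of these was called higher in iaa5 iaa6 iaa19, and 1 (7.14%) in iaa17-6: AT5G02550, beside AT5G02540 (log2 1.22, adjusted p = 1.85e-05). Over all probe sets tested 3.68% and 4.41% were called higher, so nothing is read from this count.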

How the data were processed

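The deposited log2 values were used as the authors gave them, with a floor of 5.64 (a signal of 50). For summarisation and scaling the method was not given in the sources used here. After 64 control probe sets were left out, 8554 of the 22746 others never left the floor over the 24 arrays, and the remaining 14192 were tested. Of the 22746, 13513 name 1 gene, 503 several and 8730 none, and no gene was named from the last groups. All 31 loci matched RefSeq (TAIR10.1 assembly), used for names and neighbours only. One limma fit (version 3.58.1, R 4.3.3) with 8 group means, 16 residual degrees of freedom and a mean trend in empirical Bayes gave the IAA responses of iaa5 iaa6 iaa19 and iaa17-6 and their difference. P-values were Benjamini-Hochberg adjusted over 14192 probe sets, with calls at 0.05. The fit was tested on simulated data. The number of arrays limits the precision, and the median SE was 0.152 for a response and 0.215 for the difference.

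The members and lists were chosen with earlier results of these data known. The loci named were the 12 highest and 8 lowest by the smaller response in iaa5 iaa6 iaa19 and iaa17-6, the 5 highest and 5 lowest by the share kept, the 3 just outside it, and any with a RefSeq name. Other loci named were chosen after their values were seen. Replicate numbers come from the titles. Deviations of IAA and control arrays with the same number correlated at 0.84, 0.58 and 0.63 in iaa5 iaa6 iaa19. They correlated at 0.16, 0.56 and 0.70 in iaa17-6, so the numbers may mark pairs in these mutants. They correlated at -0.05, -0.15 and 0.01 in axr3-1 and -0.07, 0.32 and 0.50 in Col. The main fit used no pairing, so its SEs, p-values and calls are unpaired. The replicate block, run as an alternative, paired the numbers in every genotype. Alternatives were other scalings, filters, moderation, array weights, a replicate block and leaving out arrays.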

Additional observations from a re-analysis of the deposited data

How the results depend on the processing

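Of the 31 loci, 30 were called higher in iaa5 iaa6 iaa19 and 30 in iaa17-6. With the test limited to probe sets that no array had at the floor, which leaves 17 of the 31 to test, 16 were called in each. Leaving out 1 replicate gave 29 to 30 in iaa5 iaa6 iaa19 and 28 to 30 in iaa17-6, and the replicate block gave 31 and 30. A fit on the groups of the contrast alone gave 29 and 25, and array weights 31 and 27. The difference between these mutants called 0 of 31 under every alternative run. No response changed sign for any locus. The blocked fit changed 1 call, that of AT5G01210 in iaa5 iaa6 iaa19, which was also called there with array weights (adjusted p = 0.00485) and on its own groups (adjusted p = 0.0295). On its own groups the iaa17-6 calls of AT3G60520, AT3G28850, AT5G44910, AT4G22530 and AT1G19020 were lost (adjusted p = 0.0627 to adjusted p = 0.155). The iaa5 iaa6 iaa19 calls of AT5G44910 (adjusted p = 0.0605) and AT2G34140 (adjusted p = 0.134) were lost in the fit on that mutant's own groups. The number of loci was 18 with a Col difference of at least 1.5, 11 with a share of at least 75%, 26 to 36 when 1 array was left out, and 37 without the 6 arrays that stood apart, a choice made after seeing the data. Over all probe sets the calls numbered 1032 in iaa5 iaa6 iaa19 and 1096 in iaa17-6. They were 561 and 562 with that limit, 2108 in iaa5 iaa6 iaa19 with array weights, and 483 in iaa17-6 on its own groups. For the difference they were 10, against 1 with that limit, 5 on its own groups and 5 with the block. The cause was not tested. The floor limits the fold of loci with control arrays at 5.64, and may lower their SEs and p-values. The planned search of promoters for TGTCTC was not run, as no promoter sequence was used here.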
